A study of Mus musculus with 33 samples.

Results

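The Hoxd cluster is 1 of 4 mammalian Hox clusters and holds 9 genes, Hoxd13, Hoxd12, Hoxd11, Hoxd10, Hoxd9, Hoxd8, Hoxd4, Hoxd3 and Hoxd1, all of which encode homeodomain transcription factors. Its binding by chromatin proteins was described from all peaks that overlapped a 112 kb window of the mouse genome build mm9, chr2:74500001-74612000, which runs from the Hoxd13 end to the Hoxd1 end of the cluster. The window held 39 of the 493022 peaks on chromosomes 1 to 19 and X in the 23 peak lists. Of these, 36 belonged to MLL3 in myoblasts, 2 to Wdr5 in myoblasts and 1 to Sin3A in myotubes. MLL3 also had by far the longest list, 218204 of the 493022 peaks. The total counts pooled lists beside the replicate lists of the same groups, so a site can count more than once.

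Hox genes give cells of the embryo their position along the body axis and the limbs, and in each cluster the genes at one end act further back and later than those at the other. The 5' Hoxd genes, from Hoxd13 to Hoxd9, pattern the limb, the digits and the hind end of the trunk, while Hoxd4, Hoxd3 and Hoxd1 act further forward. Trithorax proteins such as MLL1 keep active Hox genes on, and Polycomb proteins keep silent ones off and spread over whole silent clusters. MLL1, held at its sites by its partner Menin, puts methyl groups on H3K4 at CpG-rich promoters of active genes. MLL3 mainly places a single methyl group on H3K4, chiefly at enhancers.

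Peaks came from chromatin immunoprecipitation followed by sequencing (ChIP-seq) of C2C12 cells, a mouse myoblast line that fuses into myotubes when serum is withdrawn. Myotubes had spent 96 h (4 days) in 2% horse serum, and the medium of myoblasts held 10% fetal bovine serum. Lists of myotubes covered ING1, LSD1 and Sin3A, and lists of myoblasts covered ING1, LSD1, MLL3, MLL1, Menin and Wdr5. ING1, a reader of methylated H3K4, was pulled down by a Flag tag from cells that carried a viral transgene and were selected with puromycin, so both ING1 states come from an ectopic protein; the other antibodies were against the cells' own proteins and no genotype is given for those cells. There were 3 replicate lists of Wdr5 and of ING1 in myotubes. There were 2 of Sin3A, of Menin, of MLL1 and of ING1 in myoblasts. A pooled list of the authors accompanied each of these 6 groups. LSD1 in myotubes, LSD1 in myoblasts and MLL3 had 1 list each. Lists ran from 126 peaks (ING1 myotube replicate 3) to 218204 peaks (MLL3). The depth behind a list is unknown here, because the peak lists used hold only the ends of each peak, and the cell state could not be checked against marker genes from peak lists.

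Gene positions on mm9 were not used here, so peaks are placed by their distance from the Hoxd13 end of the window and not by gene. In the RefSeq table of build GRCm38.p6 the members lie in the order Hoxd13, Hoxd12, Hoxd11, Hoxd10, Hoxd9, Hoxd8, Hoxd3, Hoxd4 and Hoxd1, ordered by the lowest base of each gene, with the microRNA gene Mir10b and the antisense transcripts Hoxd3os1 and Haglr among them. Evx2 lies beyond Hoxd13 and Mtx2 beyond Hoxd1. The RefSeq promoter table held a sequence for all 9 members and 2 starts for Hoxd11. To show how much their promoters differ in CpG content, 3 are given here, with the 250 bases before the start on the plus strand of chromosome 2 and every CG dinucleotide in capitals.
Hoxd13: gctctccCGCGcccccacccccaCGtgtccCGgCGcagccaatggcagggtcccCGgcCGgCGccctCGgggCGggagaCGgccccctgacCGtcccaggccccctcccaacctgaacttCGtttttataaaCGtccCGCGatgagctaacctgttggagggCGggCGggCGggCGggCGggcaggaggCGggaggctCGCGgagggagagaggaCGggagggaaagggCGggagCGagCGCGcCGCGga
Hoxd10: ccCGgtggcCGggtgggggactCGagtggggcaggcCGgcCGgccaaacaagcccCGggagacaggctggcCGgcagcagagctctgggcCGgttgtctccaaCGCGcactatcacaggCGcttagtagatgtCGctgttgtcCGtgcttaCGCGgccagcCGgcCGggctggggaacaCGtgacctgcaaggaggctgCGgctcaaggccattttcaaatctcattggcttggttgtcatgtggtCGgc
Hoxd4: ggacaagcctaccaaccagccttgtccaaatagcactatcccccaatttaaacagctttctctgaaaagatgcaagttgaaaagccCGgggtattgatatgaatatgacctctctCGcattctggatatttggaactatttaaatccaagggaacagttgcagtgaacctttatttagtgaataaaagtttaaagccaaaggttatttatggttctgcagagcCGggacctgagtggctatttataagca
Hoxd13, the gene at the 5' end of the cluster, had 31 CG dinucleotides in these 250 bases, Hoxd10 had 20 and Hoxd4 had 3. CG reads the same on both strands, so each was counted once. Of the 32851 promoters of the table, 92.1% held at least 1 CG. At least as many as Hoxd13 were held by 5.19%, at least as many as Hoxd10 by 17.9% and at least as many as Hoxd4 by 71.0%. Hoxd1 had 24, the downstream start of Hoxd11 20, Hoxd9 13, Hoxd3 12, Hoxd12 10, Hoxd8 6 and the upstream start of Hoxd11 2. The median over the 10 Hoxd promoters was 12.5 CG, against 15.5 over 10 Hoxa promoters and 6 over all promoters of the table.

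MLL3 was spread over the whole Hoxd window in myoblasts. Its 36 peaks covered 24.4% of the bases, 3.80 times the 6.43% of the genome that MLL3 peaks covered, and the density was 321 peaks per Mb against 82.7 per Mb genome-wide. The first peak began 3.85 kb from the Hoxd13 end and the last ended at 110.3 kb. The genome was divided into 23545 tiles of 112 kb to show how common such values are: 4.21% of the tiles had at least the MLL3 coverage of the Hoxd window, 1.95% had at least as many MLL3 peaks, and the median tile had 6 peaks and a coverage of 3.36%. The 36 peaks were 0.0165% of the MLL3 list (exact Clopper-Pearson 95% interval 0.0116 to 0.0228, counting error only). MLL3 had a single list, so none of its values has a replicate check.

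The excess came from the number of MLL3 peaks and not from their width. The median width was 638.5 bp in the Hoxd window and 633 bp in the whole list, and 7 of 36 peaks (19.4%) were over 1000 bp wide against 18.8% genome-wide. Neighbouring peaks lay close together, with a median gap of 1005 bp in the window against 3534 bp genome-wide, and 17 of the 35 gaps (48.6%) were under 1000 bp against 23.4%. The longest stretch of the window without MLL3 ran from 84.4 to 92.1 kb. The widest peak measured 2246 bp (chr2:74560760-74563005, 60.8 kb from the Hoxd13 end), the next 1759 bp (chr2:74554342-74556100, at 54.3 kb) and the next 1670 bp (chr2:74575989-74577658, at 76.0 kb). All of these lay in the middle of the window.

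Within the window MLL3 was densest in the middle and lower towards both ends. In 8 bins of 14 kb from the Hoxd13 end to the Hoxd1 end, MLL3 covered 13.5%, 17.2%, 32.6%, 38.5%, 30.8%, 32.9%, 19.1% and 11.0% of the bases. The bins held 3, 4, 7, 8, 4, 5, 3 and 2 peak centres. The highest bin ran from 42 to 56 kb and the lowest from 98 to 112 kb. The bin just outside the Hoxd13 end had 21.8% and 4 peak centres, above the 13.5% of the first bin inside. Each bin holds few peaks, so the profile describes this list only.

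**Figure D1:**
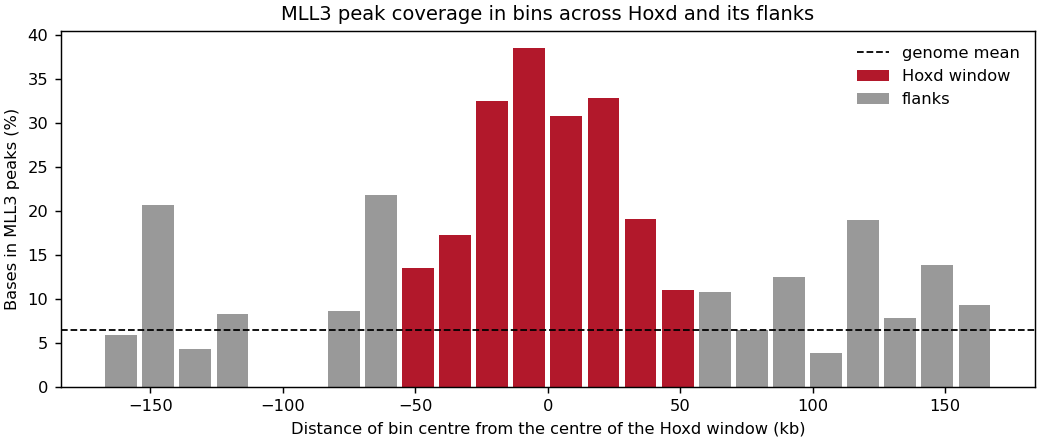
Percent of bases in MLL3 peaks of myoblasts (y axis) in bins of 14 kb, by distance from the centre of the Hoxd window in kb (x axis); red bars are the Hoxd window, grey bars the flanks and the dashed line the genome mean of 6.43%. The 4 bins in the middle of the window stand between 30.8% and 38.5%, above every flank bin, of which the highest is 21.8%.

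Averaged over 112 kb, MLL3 was sparser beyond the window. The adjoining windows of the same 112 kb had 13 MLL3 peaks and 8.69% coverage on the Hoxd13 side and 17 peaks and 10.4% on the Hoxd1 side. In the 5 windows on each side, MLL3 coverage ran from 5.55% to 9.38% on the Hoxd13 side and from 10.4% to 14.0% on the Hoxd1 side, all below the 24.4% of the Hoxd window. The edges of the window were not breaks in the list, since the next MLL3 peaks lay 0.803 kb and 3.73 kb outside it.

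Menin, MLL1 and Wdr5 had few or no listed peaks in the cluster. Menin, which anchors MLL1 to its sites, had 0 peaks in the Hoxd window in the pooled list and 0 in both replicate lists. MLL1 had 0 peaks in the pooled list and 0 in both replicate lists. Wdr5, a core subunit that all MLL complexes share, had 2 peaks in the pooled list and 0 in each of its 3 replicate lists. An empty window was common in these lists: 52.2% of the tiles had no Menin peak and 77.2% no MLL1 peak, and 51.7% had at least 2 Wdr5 peaks. Wdr5 covered 0.891% of the window, and 50.3% of the tiles had at least as much. At its genome-wide density Menin would have had 2.97 peaks in 112 kb, Wdr5 2.52 and MLL1 0.377. For single replicate lists these values were 0.983 and 0.673 for Menin and 0.175 and 0.0198 for MLL1. For Wdr5 they ran from 0.213 to 0.400. A count of 0 allows up to 26.8 peaks per Mb (3 counts in the window), and Menin averaged 26.6 per Mb and MLL1 3.37, so a deficit of either against the genome was not detectable in a window of this size.

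Beside dense MLL3, tiles empty of both Menin and MLL1 were less frequent than elsewhere, mainly because few lacked Menin. Among the 991 tiles with at least the MLL3 coverage of the Hoxd window, 16.0% held no peak of Menin or of MLL1, against 52.1% of the 22554 tiles with less MLL3. Of these 991 tiles, 178 held no Menin peak, but 499 (50.4%) held no MLL1 peak, against 77.2% of all tiles. The lack of MLL1 at Hoxd was therefore common beside dense MLL3. Tiles as rich in MLL3 had a median of 6 Menin peaks, 6 Wdr5 peaks and 0 MLL1 peaks, against 0 Menin, 2 Wdr5 and 0 MLL1 peaks at Hoxd. This comparison was chosen after the values were seen and has no test, since tiles are not replicates.

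**Figure D2:**
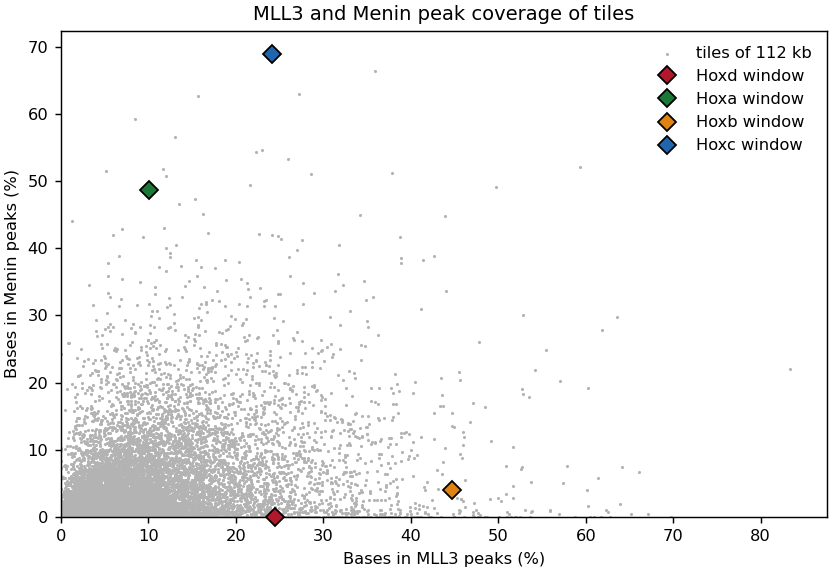
Percent of bases in MLL3 peaks (x axis) and in Menin peaks (y axis), both of myoblasts, for 23545 tiles of 112 kb (grey points) and for 4 windows over Hox clusters (diamonds). Hoxd lies on the x axis at 24.4% MLL3 and 0% Menin; Hoxb lies at 44.7% and 3.98%, while Hoxc (24.1% and 68.9%) and Hoxa (10.0% and 48.7%) lie high on the Menin axis.

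The 2 Wdr5 peaks were narrow and met MLL3. One spanned 503 bp (chr2:74534444-74534946, 34.4 kb from the Hoxd13 end), with 76.9% of it inside MLL3 peaks, and the other 495 bp (chr2:74524367-74524861, at 24.4 kb), with 56.2% inside. Genome-wide 22.0% of Wdr5 peaks met an MLL3 peak, and the interval on 2 of 2 runs from 15.8% to 100% (exact Clopper-Pearson 95%), so the count shows no excess. Neither could meet Menin, MLL1, ING1 of myoblasts or LSD1 of myoblasts, whose lists had no peak in the window. Of all Wdr5 peaks, 29.2%, 8.56%, 10.9% and 5.94% met these lists. Neither peak overlapped a peak of any Wdr5 replicate list, as was the case for 83.2% of all pooled Wdr5 peaks. From the side of MLL3, 2 of 36 peaks met Wdr5 (5.56%, exact 95% interval 0.680 to 18.7), near the genome-wide 6.12%. Menin, MLL1, ING1 of myoblasts and LSD1 of myoblasts had no peak in the window, so none of the 36 could meet them. Genome-wide, 9.02%, 0.701%, 0.692% and 0.365% of MLL3 peaks met these lists. The upper limit on 0 of 36 is 9.74% (exact 95%), above each of these shares, but it takes neighbouring peaks as independent. Across states, ING1 of myotubes (0.829% genome-wide) and LSD1 of myotubes (1.69%) were also empty there and could not be met. Sin3A of myotubes was met by 1 MLL3 peak (2.78%, against 1.33%). In all, 33 of the 36 MLL3 peaks overlapped no peak of the other 8 pooled or single lists, 91.7% against 85.6% genome-wide. Of these 8 lists, 6 had no peak in the window.

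ING1 and LSD1 had no listed peak in the cluster in either state. ING1 had 0 peaks in the window in all 3 myotube replicate lists and 0 in both myoblast replicate lists, and both pooled lists were empty there too. The coverage was therefore 0% ± 0 in myotubes (SD, n = 3) and 0% ± 0 in myoblasts (SD, n = 2), a difference of 0. With every value at 0 the two-sided exact permutation p is 1 by construction, for coverage and for peak number, and says nothing about whether the states differ; 0.2 is the smallest p that 10 arrangements allow. LSD1, which takes methyl groups off H3K4, had 0 peaks in the myotube list and 0 in the myoblast list, with 1 list per state and no test. Tiles with no peak made up 77.5% for ING1 in myotubes and 79.2% in myoblasts, and 78.7% for LSD1 in myotubes and 87.2% in myoblasts, so an empty window is the usual case for these lists. These shares are for the pooled or single lists. At genome-wide density the ING1 replicate lists would have had 0.0918, 0.106 and 0.00535 peaks in the window in myotubes. In myoblasts the values were 0.0182 and 0.235, so their counts of 0 add little.

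Sin3A, the scaffold of a histone deacetylase complex, had 1 peak in the window, in myotubes. It spanned 518 bp (chr2:74554524-74555041, 54.5 kb from the Hoxd13 end) and lay wholly inside the second widest MLL3 peak of myoblasts. It was in the pooled list but in neither replicate list, as were 36.6% of pooled Sin3A peaks. At least 1 Sin3A peak was found in 31.1% of the tiles, and 26.4% had at least the Sin3A coverage of the window, 0.463%. Of all Sin3A peaks, 52.5% met ING1 of myotubes, 29.1% LSD1 of myotubes and 20.6% MLL3 of myoblasts. Of the myoblast lists, Menin met 67.8% of all Sin3A peaks, Wdr5 64.9%, ING1 43.6%, MLL1 26.2% and LSD1 24.6%. The Hoxd peak met MLL3 and no peak of the other 7 lists, 6 of which had no peak in the window.

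**Figure D3:**
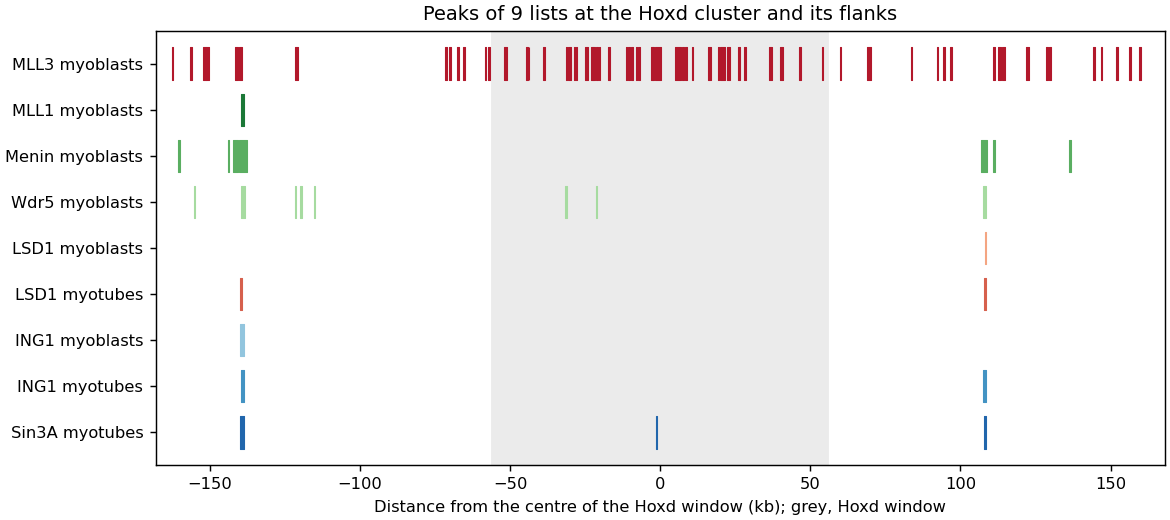
Peaks of the 9 pooled or single lists (rows) at the Hoxd window, shaded grey, and 112 kb on either side, by distance from the window centre in kb (x axis; the Hoxd13 end is on the left). Within the window 36 MLL3 peaks stand beside 2 of Wdr5 and 1 of Sin3A, while most other factors share a site on each side.

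Both flanks held a site where many factors met, and the cluster lay between them. The sites were chosen as the nearest Menin peaks, so the pooled Menin list counts at each by choice. How often Menin peaks elsewhere in the genome meet as many lists was not computed, so the counts have no background. The nearest Menin peak on the Hoxd13 side, 2566 bp wide at chr2:74415733-74418298 and 81.7 kb from the window, met peaks in 8 of the 9 pooled or single lists and 10 of the 14 replicate lists. MLL1 covered 39.2% of it, Wdr5 56.4%, ING1 32.4% in myotubes and 50.6% in myoblasts, Sin3A 40.9%, LSD1 of myotubes 35.5% and MLL3 33.2%. Only LSD1 of myoblasts was missing. The nearest on the Hoxd1 side, 2203 bp wide at chr2:74662777-74664979 and 50.8 kb from the window, met peaks in 6 of 9 such lists and 6 of 14 replicate lists: Menin itself, Wdr5, Sin3A, ING1 of myotubes and LSD1 of both states. All 3 Wdr5 and both Menin replicate lists had a peak at each site. On the Hoxd1 side Sin3A had a peak in 1 of its 2 replicate lists, and ING1 of myotubes in 0 of 3, so its peak there is in the pooled list alone. The stretch between neighbouring peaks on the 2 sides was 244.5 kb long for Menin, 246.2 kb for ING1 in myotubes (pooled list) and 247.0 kb for LSD1 in myotubes. It was 1030.3 kb for MLL1, 1080.3 kb for ING1 in myoblasts and 914.7 kb for LSD1 in myoblasts. These last 3 lists are sparse, with 3.37, 3.11 and 1.68 peaks per Mb genome-wide. Every such stretch had to span the 112 kb window, and none was set beside gaps elsewhere, so their length is not shown to be unusual. No gene is assigned to these sites.

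The other Hox clusters were set beside Hoxd in windows of the same width. These windows, chr6:52104001-52216000 for Hoxa, chr11:96124001-96236000 for Hoxb and chr15:102749001-102861000 for Hoxc, were placed from general knowledge of mm9 and not from an annotation. Menin covered 0% of the Hoxd window, against 48.7% of Hoxa, 3.98% of Hoxb and 68.9% of Hoxc. Its replicate lists gave 0% and 0% at Hoxd, against 42.8% and 40.8% at Hoxa, 0.971% and 0.770% at Hoxb and 58.6% and 55.3% at Hoxc. MLL1 covered 0% at Hoxd in the pooled list and in both replicate lists. At Hoxa MLL1 covered 32.1% in the pooled list and 27.2% and 14.1% in the replicate lists, and at Hoxc 47.0%, 38.9% and 13.7%. At Hoxb it covered 0.797% in the pooled list and 0% in both replicate lists. In the Menin and MLL1 replicate lists the values at Hoxd lay outside the range of those at Hoxa and Hoxc. The rare values were those of Hoxa and Hoxc. At least the Menin coverage of Hoxa was found in 0.0722% of the tiles, and that of Hoxc in 0%. For MLL1 these shares were 0.00849% and 0%. Tiles were laid in phase with the Hoxd window, so of the Hox windows only Hoxd is itself a tile. The other clusters can be split between tiles, so their shares can come out too low. The 0% at Hoxd was common, since 52.2% of the tiles had no Menin peak and 77.2% no MLL1 peak. The same libraries gave the values of all 4 clusters, so they are no independent groups and no test was made.

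**Figure D4:**
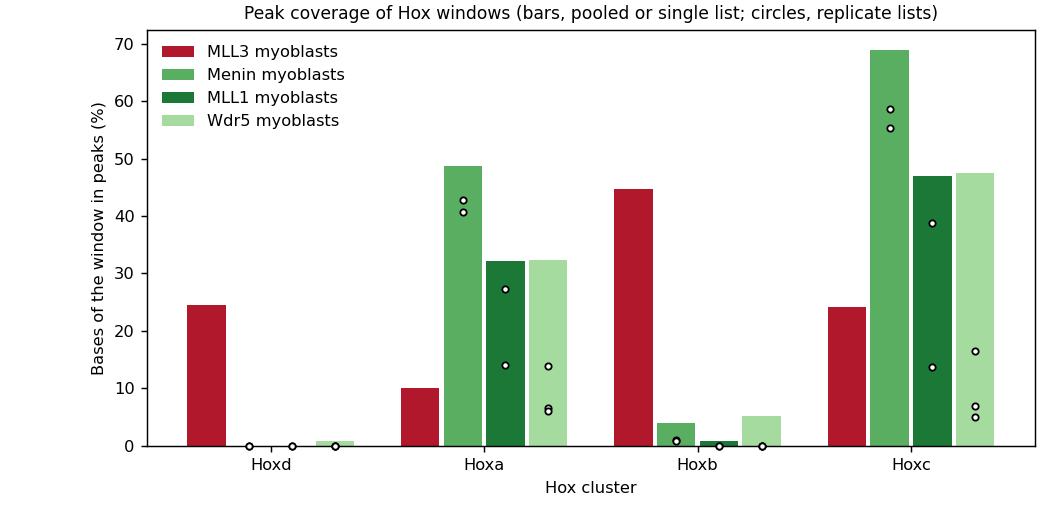
Percent of bases in peaks (y axis) of MLL3, Menin, MLL1 and Wdr5 in myoblasts for windows of 112 kb over 4 Hox clusters (x axis); bars are the pooled lists (the single list for MLL3) and open circles the replicate lists. At Hoxd only the MLL3 bar, 24.4%, rises above 1%, and Hoxa and Hoxc have Menin bars of 48.7% and 68.9%.

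MLL3 covered 24.4% at Hoxd with 36 peaks, against 10.0% at Hoxa with 14, 44.7% at Hoxb with 48 and 24.1% at Hoxc with 21. The MLL3 coverage of Hoxd and Hoxc was thus close, with more peaks at Hoxd. At Hoxd 0 of 36 MLL3 peaks met Menin, which had no peak there, against 6 of 14 at Hoxa (42.9%) and 2 of 48 at Hoxb (4.17%). At Hoxc 14 of 21 did (66.7%, exact Clopper-Pearson 95% interval 43.0 to 85.4, which takes neighbouring peaks as independent). These shares rose with the Menin coverage of each window, so they are no separate result. Of the MLL3 bases, 33.4% at Hoxa, 1.18% at Hoxb and 60.2% at Hoxc lay in Menin peaks, each below the Menin coverage of that window. Wdr5 covered 0.891% at Hoxd, against 32.3% at Hoxa, 5.16% at Hoxb and 47.5% at Hoxc. The share of tiles with at least as much Wdr5 was 50.3% for Hoxd, against 0.0127% for Hoxa, 7.96% for Hoxb and 0% for Hoxc. Here too only the Hoxd window is itself a tile. In its replicate lists Wdr5 covered 0% at Hoxd, against 6.10% to 13.8% at Hoxa, 0% at Hoxb and 4.97% to 16.5% at Hoxc. In the pooled or single lists, ING1 of myotubes had 0 peaks at Hoxd, against 11 at Hoxa, 0 at Hoxb and 15 at Hoxc, and ING1 of myoblasts 0, against 11, 0 and 20. LSD1 of myotubes had 0 at Hoxd, against 2, 0 and 4, and LSD1 of myoblasts 0, against 6, 0 and 8. Sin3A had 1 at Hoxd, against 13, 0 and 11. Single replicate lists held fewer of these peaks. ING1 of myotubes had 0 to 1 per replicate list at Hoxa and 0 to 2 at Hoxc. ING1 of myoblasts had 0 to 7 and 1 to 10, and Sin3A 0 to 7 and 0 to 8. The low ends came from short lists. ING1 myoblast replicate 1 held 428 peaks against 5528 in replicate 2, and Sin3A replicate 2 held 430 against 9390 in replicate 1. At Hoxd and Hoxb the ING1 and Sin3A replicate lists all held 0.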

How the data were processed

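The deposited values were the chromosome and the left and right end of each peak in bp, per the file headers, with no height or score. Per the submitters' processing notes, the tools were bedtools 2.17.0, SAMtools 0.1.19 and Bowtie 0.12.9, and the builds NCBIM37 and mm9. How peaks were called, at what threshold and how the authors pooled replicates is not given in the sources used here. Groups and replicates came from the sample titles, and for Sin3A the label (myotubes) was followed over the design text. The source label of both MLL1 samples reads Menin; their titles and antibody, which name MLL or MLL1, were followed, so every MLL1 value rests on those. Of the 33 samples, 17 ChIP samples entered; 6 of RNA-seq and 10 inputs are not analysed here.

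Left boundaries were taken as 0-based and are printed 1-based. Peaks were cut at the window edges for coverage and counted whole for numbers, and an overlap of at least 1 bp counted as shared. Tiles of 112 kb were laid in phase with the Hoxd window up to the last peak of each of chromosomes 1 to 19 and X (2638 Mb in all). ING1 was compared between states by an exact permutation test over replicate lists, and nothing in the labels says that replicates are separate cultures. Named regions were the 3 widest peaks of each list in the window. The window, lists and comparisons were chosen with earlier results of these data known. Functions were tested on simulated intervals. Python 3.11.15, numpy 2.4.6, pandas 2.3.3, scipy 1.17.1 and matplotlib 3.10.9 were used. Promoter sequences are from RefSeq, build GRCm38.p6, and were not placed on mm9.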

Additional observations from a re-analysis of the deposited data

How the results depend on the processing

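Of 145 values recomputed under alternatives, 111 stayed as reported and 34 moved. The yardstick was narrow: for Wdr5 and Sin3A coverage it was the replicate SD, which is 0 in the window, and for MLL3 a binomial interval over bases, which are not independent, so a move need not exceed the counting error on 36, 2 or 1 peaks. The lists with no peak in the window stayed at 0 under every setting run: the wider 50% of each list, a window 10 kb shorter or longer at each end, unions of the replicate lists and unions without each replicate in turn. MLL3 coverage was 17.4% with the wider 50% of peaks, 27.0% with the shorter and 22.6% with the longer window, and its ratio to chromosome 2 alone was 3.25. The share of tiles with as much MLL3 was 4.64% among tiles with at least 1 peak of any list. When each list kept just its 4442 widest peaks, that share was 100% for MLL3, Wdr5 and Sin3A, because none of their Hoxd peaks was kept; the narrowest MLL3 peak kept was 2273 bp wide. Wdr5 coverage was 0% with the wider 50% of peaks, 1.08% with the shorter and 0.756% with the longer window, and Sin3A coverage 0%, 0.563% and 0.392%. Both were 0% with unions of the replicate lists, in coverage and in ratio to the genome, and ran from 0% to 0% with a replicate left out. Against chromosome 2 the ratios were 0.433 for Wdr5 and 0.894 for Sin3A, and among those tiles 55.4% had as much Wdr5 and 29.1% as much Sin3A. With those unions 0% of the MLL3 peaks met Wdr5 and 0% met Sin3A, also with a replicate left out (0% to 0%); the reverse shares could not be given, since no Wdr5 or Sin3A peak was left. Joint tiles and pairs of lists across states were chosen after seeing the data. With the replicate number as a block the ING1 difference between myotubes and myoblasts was 0 (exact sign-flip permutation p = 1, by construction); the numbers could not be checked for pairing, since all values were 0. The unknown depth of each list limits every count of 0.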
